A study of Caenorhabditis elegans with 12 samples.

Results

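Notch signalling genes were followed in wild-type N2 hermaphrodites of Caenorhabditis elegans, a soil nematode: the receptors lin-12 and glp-1, the transcription factor lag-1, the DSL ligands lag-2, apx-1, arg-1, dsl-1, dsl-3 and dsl-7, and the coligand osm-11. These 10 genes, of 46546 named genes in the count tables, were chosen by name as a pathway with the read counts of these libraries already known across the 4 groups. Which of those counts weighed in the choice is not recorded, so every level and fold change of the 10 genes is given as a description, with no p-value, and a count of members past a threshold of the fit across all genes is given only beside the share of all genes past it. Worms were synchronised at L1 and grown at 20 °C on OP50 bacteria, either for 47 h to L4 or for 27 h to L3. At each stage 3 libraries came from worms with 20 µM cadmium chloride (Cd) added to the bacteria and 3 from worms without it, making 12 libraries of poly-A RNA from whole worms. The source name of the 6 exposed libraries reads Cd 0, while their title, description and treatment give 20 µM, and the groups here follow the title. As a check of that label, added after the data were seen, the metallothionein gene mtl-1, known to be induced by cadmium, had 14.8, 18.1 and 22.6 CPM (library-scaled counts) in exposed and 2.3, 3.47 and 1.34 CPM in unexposed L4 worms, and 233, 211 and 256 CPM in exposed and 5.11, 5.73 and 6.22 CPM in unexposed L3 worms. Stage and hours of exposure change together in this design and cannot be told apart. Because each library came from whole worms, fewer cells of a type and less RNA per cell also cannot be told apart. No source used here says that the replicates were separate cultures, so p-values measure the spread between these libraries, which may be technical.

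In Notch signalling a transmembrane ligand on a neighbouring cell, or a secreted ligand, binds the receptor. Proteases then cut the receptor, and its intracellular part enters the nucleus and joins a DNA-binding protein of the CSL family to switch on target genes. In C. elegans, LIN-12 acts in the choice between anchor cell and ventral uterine precursor and among the vulval precursor cells. GLP-1 keeps the stem cells of the germline dividing by mitosis, in response to ligands shown by the distal tip cell at the end of each gonad arm. Proteins with a DOS motif, OSM-11 among them, act as coligands beside the DSL proteins.

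Library totals lay between 23899991 and 44766672 counts over named genes, and 28601 genes had a count in at least 1 library. Levels are given as CPM, counts scaled to library size after TMM normalization, and, where genes are compared with each other, as RPKM, the same value divided by the length of the gene in kilobases. The order of the labelled stages was checked with marker lists. Without Cd 11 of 12 germline markers were called higher at L4 than at L3, beside 28.5% of all genes. With Cd 9 of 12 were, beside 25.5%. All 3 yolk protein genes, listed as markers of the adult intestine, were called higher both ways. Of these, vit-2 averaged 7868 CPM in exposed and 11117 CPM in unexposed L4 worms, against 2.57 and 3.17 CPM at L3. These lists give the order of the stages and do not separate L4 from adult worms. A gene was called where edgeR's quasi-likelihood test and Benjamini-Hochberg adjustment put p at or below 0.05 and the log2 fold change was 1 or more in size. Some libraries stood apart from their group. The 12 germline markers summed to 2223 CPM in exposed L4 replicate 1, below the 2819 and 2777 CPM of replicates 2 and 3, and its 11 moulting-cycle genes summed to 606 CPM against 405 and 389 CPM. In unexposed L3 replicate 3 the moulting-cycle genes summed to 3982 CPM, against 2165 and 2093 CPM in replicates 1 and 2.

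The receptors had opposite stage profiles. lin-12 (chromosome III, 9060096 to 9071760, minus strand, WBcel235) had 8.16, 7.93 and 7.25 CPM in exposed L4 worms and 25.2, 27.3 and 28.5 CPM in exposed L3 worms. Without Cd it had 6.53, 6.48 and 6.11 CPM at L4 and 27.9, 27.2 and 26.9 CPM at L3. All L4 libraries lay below all L3 libraries, with or without Cd. The log2 fold change of L4 against L3 was -1.80 ± 0.113 (SE) in exposed worms and -2.03 ± 0.108 in unexposed worms.

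glp-1 lies 20480 bases from lin-12 on the other strand (III, 9092241 to 9099698, plus strand). Its levels were 144, 223 and 208 CPM in exposed L4 worms and 31.3, 35.6 and 35.5 CPM in exposed L3 worms. Without Cd they were 196, 283 and 223 CPM at L4 and 26.3, 28.5 and 32 CPM at L3. The lowest L4 library was far above the highest L3 library. Levels at L4 were 5.59-fold those at L3 in exposed worms and 8.43-fold in unexposed worms, log2 fold changes of 2.48 ± 0.156 and 3.08 ± 0.148. Per length, the ratio of glp-1 to lin-12 was 27.8 ± 7.02 in exposed L4 worms and 41.2 ± 7.65 in unexposed L4 worms (SD, n = 3 each). At L3 the same ratio was 1.42 ± 0.0379 in exposed worms and 1.19 ± 0.136 in unexposed worms, with no overlap between the RPKM ranges of the receptors in either group. The L4 ratio of the exposed libraries ran from 19.7, in replicate 1, to 32.2 and did not reach the lowest unexposed value of 33.7.

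lag-1 encodes the CSL protein through which both receptors act (IV, 6095411 to 6110639, plus strand). It had 60.2, 76.4 and 72.7 CPM in exposed L4 worms and 27.1, 29 and 27.7 CPM in exposed L3 worms. Without Cd it had 76.7, 101 and 80.6 CPM at L4 and 30.2, 29.9 and 25.8 CPM at L3. The log2 fold change of L4 against L3 was 1.32 ± 0.103 with Cd and 1.65 ± 0.114 without, smaller than that of glp-1 in both. In the annotation, 145 bases of lag-1 exons, 4.37% of its length, overlap the noncoding gene K08B4.42 on the opposite strand, and no source used here states whether counting used strand.

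**Figure D1:**
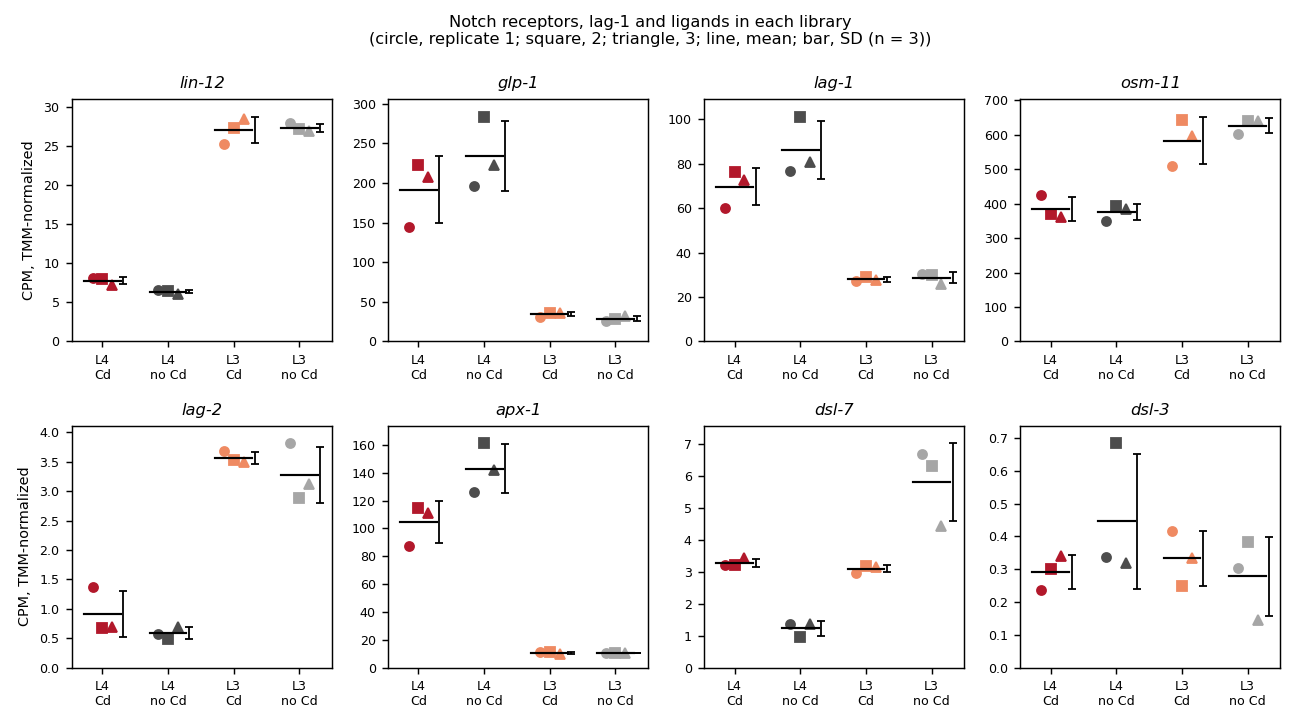
Level (CPM, linear axes from 0) of the 8 members with usable counts in each of the 12 libraries, by stage and Cd, with the group mean and SD (n = 3). glp-1, lag-1 and apx-1 stand higher at L4 than at L3, and lin-12, lag-2 and osm-11 stand lower. For lag-1 the order turns round relative to the germline-marker sum, in which gld-1 is the largest term at L4. dsl-7 is alike in exposed L4 and exposed L3 worms, at 3.28 and 3.11 CPM, and apart in the unexposed stages.

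Among the ligands, lag-2 and apx-1 are also neighbours, 20347 bases apart on chromosome V, and also had opposite stage profiles. lag-2 encodes the ligand that the distal tip cell presents to the germline and also acts in the anchor cell decision (V, 3188350 to 3189841, plus strand). It had 1.37, 0.68 and 0.70 CPM in exposed L4 worms and 3.68, 3.53 and 3.49 CPM in exposed L3 worms. Without Cd it had 0.582, 0.492 and 0.698 CPM at L4 and 3.81, 2.89 and 3.13 CPM at L3. The L4 libraries all lay below the L3 libraries, by a log2 fold change of -1.99 ± 0.273 with Cd and -2.39 ± 0.244 without, on 18 to 46 counts per L4 library. Without exposed L4 replicate 1 the exposed value was -2.36 ± 0.197.

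apx-1 encodes a ligand for both receptors, known from the early embryo and as a lateral signal between vulval precursor cells (V, 3210189 to 3223218, plus strand). It had 87.5, 115 and 111 CPM in exposed L4 worms and 11.4, 11 and 9.77 CPM in exposed L3 worms. Without Cd it had 126, 161 and 142 CPM at L4 and 10.5, 10.7 and 10.6 CPM at L3. L4 levels were 9.71-fold L3 levels with Cd and 14.1-fold without, log2 fold changes of 3.28 ± 0.127 and 3.82 ± 0.105. These were the largest stage differences among the members. Per length, apx-1 stood at 57.1 ± 25.4 times lag-2 in exposed L4 worms and 109 ± 29.7 times in unexposed L4 worms (SD, n = 3 each). At L3 it stood at 1.31 ± 0.0781 times in exposed worms and 1.43 ± 0.213 times in unexposed worms. The exposed L4 ratio was 27.9 in replicate 1 and 74.0 and 69.3 in replicates 2 and 3.

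osm-11 encodes a secreted DOS-motif coligand that promotes LIN-12 signalling in vulval development and also affects osmotic stress resistance (X, 17420211 to 17421582, minus strand). It had 425, 369 and 362 CPM in exposed L4 worms and 509, 643 and 598 CPM in exposed L3 worms. Without Cd it had 349, 394 and 385 CPM at L4 and 602, 640 and 639 CPM at L3. Its L4 libraries lay below its L3 libraries, by a log2 fold change of -0.60 ± 0.106 with Cd and -0.67 ± 0.0885 without, under the fold minimum for a call.

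The other DSL ligands were scarce. dsl-3 (IV, 1610236 to 1612915, plus strand) had 5 to 25 counts per library and between 0.147 and 0.683 CPM in all 12 libraries, with overlapping groups. dsl-1, a secreted ligand known from the vulval lateral signal (IV, 1207255 to 1208102, minus strand), had 0 to 3 counts per library. arg-1, named for its likeness to apx-1 (X, 1786907 to 1788405, plus strand), had 0 to 4 counts. A count of 3 is worth 0.0671 to 0.13 CPM in these libraries, and neither dsl-1 nor arg-1 passed the filter on low counts in any comparison. Differences in dsl-1 and arg-1 were therefore not tested.

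Ordered by RPKM, osm-11 led the members in all 4 groups, at 326 RPKM in exposed and 318 RPKM in unexposed L4 worms and at 494 RPKM in exposed and 531 RPKM in unexposed L3 worms. At L4 glp-1 and apx-1 followed, with 44.3 and 37.8 RPKM in exposed worms and 54.1 and 51.7 RPKM in unexposed worms, and their ranges over libraries overlapped. lag-1 came next, at 21.0 RPKM with Cd and 25.9 RPKM without, clear of the genes on either side. At L3 the order after osm-11 was lag-1, glp-1, lin-12 and apx-1 with or without Cd, between 3.87 and 8.42 RPKM in exposed worms and between 3.82 and 8.63 RPKM in unexposed worms. lag-1 and glp-1 overlapped in exposed L3 worms, and apx-1, dsl-7 and lag-2 overlapped, each with the next, in unexposed L3 worms. lin-12 and dsl-7 changed places at L4. dsl-7 stood above lin-12 in exposed worms, 2.06 against 1.61 RPKM, and below it in unexposed worms, 0.774 against 1.31 RPKM.

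In counts of calls, 5 of the 8 members tested passed between exposed L4 and L3 worms, where 48.1% of all 16650 genes tested passed. The higher members were glp-1, lag-1 and apx-1, beside 25.5% of all genes called higher, and the lower members were lin-12 and lag-2, beside 22.6% called lower. Between unexposed L4 and L3 worms 6 of 8 passed, where 56.4% of 16487 genes did. The same 3 genes were higher, beside 28.5% of all genes, and lin-12, lag-2 and dsl-7 were lower, beside 27.9%. These counts are descriptive, since the members were picked with these libraries in view.

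**Figure D2:**
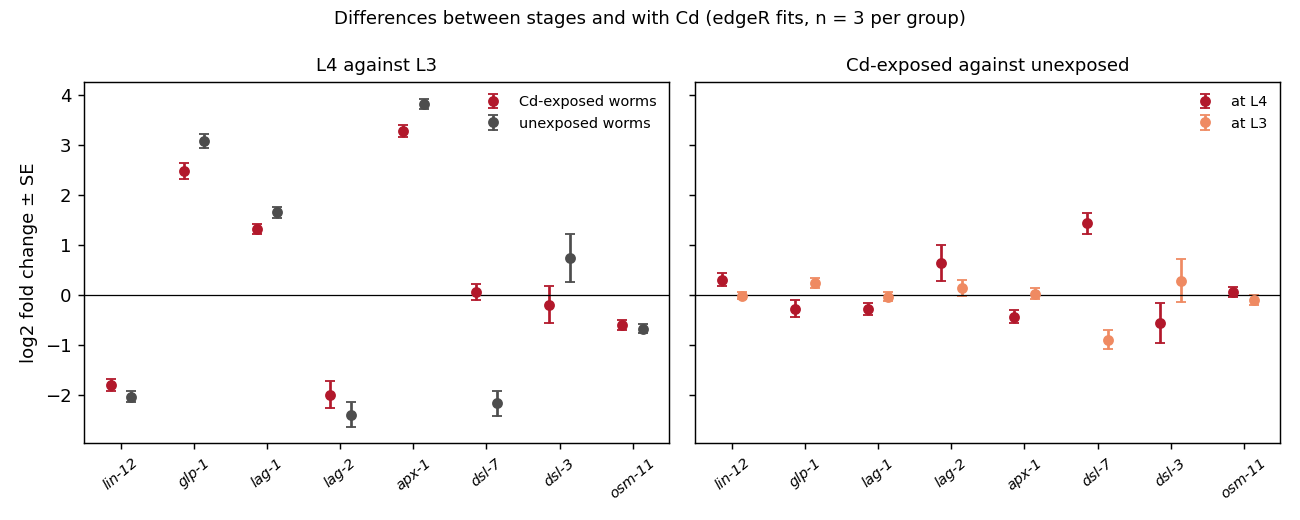
Left, log2 fold change of L4 against L3 in Cd-exposed and unexposed worms. Right, log2 fold change of Cd-exposed against unexposed worms at L4 and at L3, for the 8 members tested, with SE from the edgeR fits (n = 3 per group). Stage differences reach 3.28 and 3.82 for apx-1, while Cd differences stay within 1 log2 unit of 0 except for dsl-7 at L4, at 1.43.

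Germline markers moved with stage as well. Their sum was 2606 ± 333 CPM in exposed L4 worms and 3080 ± 334 CPM in unexposed L4 worms, against 753 ± 15 CPM in exposed and 702 ± 22 CPM in unexposed L3 worms (SD, n = 3 each). Set against this sum, in a scaling added after the data were seen, glp-1 still stood higher at L4 than at L3, by 0.68 log2 units with Cd and 0.88 without. apx-1 stood higher by 1.5 with Cd and 1.62 without. lag-1 turned round and stood lower at L4, at -0.47 with Cd and -0.55 without. The largest term of the L4 sum was gld-1, at 801 CPM in exposed and 970 CPM in unexposed worms. At L3 gld-1 had 69.2 CPM in exposed and 58.9 CPM in unexposed worms. A sum without gld-1 was not tried, so how far the turn of lag-1 rests on that marker was not tested. The part of the germline in these stage differences was not tested beyond this scaling.

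**Figure D3:**
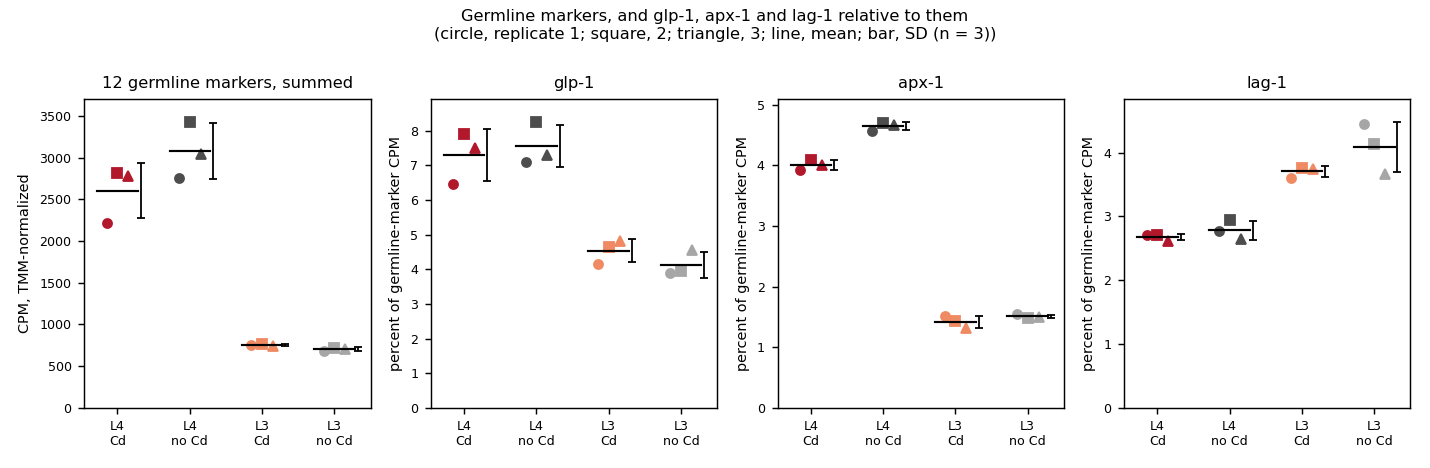
Summed level of the 12 germline markers (CPM), and glp-1, apx-1 and lag-1 as a percentage of that sum, in each library by stage and Cd, with mean and SD (n = 3). glp-1 averaged 7.29% in exposed and 7.56% in unexposed L4 worms, against 4.53% in exposed and 4.12% in unexposed L3 worms. As a share of the sum, lag-1 stood lower at L4 than at L3, with gld-1 the largest term of the sum at L4.

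Cd moved most members little. At L4 none of the 8 members tested was called by edgeR's quasi-likelihood test, 4 had an unadjusted p under 0.05, and DESeq2's Wald test called 1, dsl-7. Across all genes edgeR called 0.0432% of 16201 tested at L4, and 26.8% had an unadjusted p under 0.05. DESeq2's Wald test called 170 of the 25350 genes it fitted at L4. At L3 edgeR called 0 of 8 and DESeq2 called 0 of 8, and 2 had an unadjusted p under 0.05. Of all 15024 genes tested edgeR called 3.63%, and 26% had an unadjusted p under 0.05. At L4 4 of the 8 members had no overlap between exposed and unexposed libraries, beside 36.3% of all genes: lin-12 and dsl-7 stood higher with Cd, lag-1 and apx-1 lower. At L3 only dsl-7, which stood lower with Cd, had none, beside 33.1% of all genes.

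The sizes at L4 were modest for all but dsl-7. lin-12 averaged 7.78 ± 0.473 CPM in exposed and 6.37 ± 0.23 CPM in unexposed L4 worms, a log2 fold change of 0.31 ± 0.124 (SE). apx-1 averaged 105 ± 15 CPM in exposed and 143 ± 17.5 CPM in unexposed L4 worms, at -0.43 ± 0.123. lag-1 had -0.28 ± 0.12. Without exposed L4 replicate 1 the value was -0.32 ± 0.106 for apx-1 and -0.18 ± 0.113 for lag-1. The germline markers had a median of -0.23, against 0.03 over all genes tested, and 4 of 12 were lower in every exposed library, where 36.3% of all genes did not overlap in either direction. edgeR and DESeq2 each called 0 of 12, and 5 had an unadjusted p under 0.05 in edgeR. Relative to their sum, the L4 difference with Cd was -0.21 for apx-1, -0.05 for lag-1 and 0.53 for lin-12. As a percentage of the germline sum, apx-1 was 3.93, 4.09 and 4% in exposed L4 worms and 4.57, 4.70 and 4.67% in unexposed L4 worms, which did not overlap.

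glp-1 had opposite signs at the stages, neither value called: -0.27 ± 0.177 with Cd at L4 and 0.24 ± 0.102 at L3. Without exposed L4 replicate 1, the library with the lowest germline sum at L4, the L4 value was -0.10 ± 0.143. Relative to the germline sum glp-1 stood at -0.05 at L4 and 0.14 at L3. The germline markers also had medians of opposite sign, -0.23 at L4 and 0.18 at L3. At L3 9 of 12 of them were higher in every exposed library, where 33.1% of all genes did not overlap in either direction. dsl-3 also had opposite signs, -0.56 ± 0.407 at L4 and 0.29 ± 0.43 at L3, where it was -0.04 without unexposed L3 replicate 3. lag-2 stood at 0.64 ± 0.361 with Cd at L4 and at 0.24 ± 0.315 without exposed L4 replicate 1. At L3 lin-12, lag-1 and apx-1 had log2 fold changes of -0.01 ± 0.0798, -0.03 ± 0.0881 and 0.03 ± 0.102 with Cd, and osm-11 had -0.10, with overlapping libraries throughout.

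dsl-7 had the largest difference with Cd among the 8 members at either stage, and was the only one of them whose exposed and unexposed libraries separated in opposite directions at L4 and at L3. Outside the members, osm-7, mlt-8, mlt-10 and nhr-25 separated in the same way, and sel-10 and lst-1 in the reverse way. The share of all genes that separated in opposite directions was not counted. dsl-7 encodes a DSL-domain protein that has been studied little (V, 12993180 to 12994822, plus strand). It had 3.21, 3.20 and 3.43 CPM in exposed L4 worms and 1.36, 0.956 and 1.37 CPM in unexposed L4 worms. At L3 it had 2.97, 3.19 and 3.15 CPM in exposed worms and 6.67, 6.32 and 4.42 CPM in unexposed worms. The exposed libraries lay above all unexposed ones at L4, 2.69-fold higher, and below all of them at L3, with a log2 fold change of 1.43 ± 0.208 at L4 and -0.89 ± 0.184 at L3.

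The counts behind dsl-7 were 35 to 214 per library. The lowest unexposed L3 library was replicate 3, whose moulting-cycle genes summed highest, and without it the L3 difference was -1.05 ± 0.151, past the call. Between the stages, dsl-7 had a log2 fold change of 0.07 ± 0.16 in exposed worms and -2.16 ± 0.25 in unexposed worms. The effect of Cd at L4 minus that at L3 was 2.31 ± 0.275. dsl-7 was the 1 member of 8 called for that difference, beside 6.23% of all 17196 genes tested. Leaving out each library in turn gave values from 2.14 to 2.47. The other members had differences between -0.87 (dsl-3) and 0.48 ± 0.372 (lag-2, which fell to 0.10 without exposed L4 replicate 1).

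The pathway genes outside the members came from a list of 42 names, of which 40 matched the count tables. Their p-values are from edgeR's test with Benjamini-Hochberg adjustment over all genes. This list and the marker lists were also chosen with earlier results of these data known, and the p-values do not allow for that choice. With Cd at L4, 0 of 33 tested were called, beside 0.0432% of all genes, and DESeq2 called 0. An unadjusted p under 0.05 in edgeR was found for 8, or 24.2%, beside 26.8% of all genes. Of the 10 transcriptional targets tested, 4 (lst-1, sygl-1, lst-4 and ref-1) were lower and 1, lst-2, was higher in every exposed library. Of all genes, 36.3% did not overlap in either direction. The median of the 10 targets was -0.15, beside the germline median of -0.23. The targets lst-1 and sygl-1, which GLP-1 switches on in germline stem cells, had log2 fold changes of -0.34 ± 0.122 (adjusted p = 0.139) and -0.41 ± 0.12 (adjusted p = 0.11), and lst-2 had 0.17 ± 0.0808 (adjusted p = 0.211). At L3, 1 of 31 was called, beside 3.63% of all genes. It was osm-7, which encodes a secreted DOS-motif protein of the same kind as osm-11.

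osm-7 (III, 13576188 to 13580662, plus strand) turned round between the stages as dsl-7 did. It had 75.5, 45.6 and 46.3 CPM in exposed L4 worms and 37.4, 26.2 and 40.3 CPM in unexposed L4 worms. At L3 it had 35.6, 38.8 and 44.3 CPM in exposed worms and 163, 154 and 79.2 CPM in unexposed worms. Exposed libraries were above unexposed ones at L4, by 0.71 ± 0.237 (adjusted p = 0.127), and below them at L3, by -1.73 ± 0.258 (adjusted p = 0.0141). The L3 call was lost on leaving out any library except unexposed replicate 3, with adjusted p from 0.0509 to 0.101; without that replicate the value was -1.99 and adjusted p was 1.86e-05. It was also lost with a replicate block, at -1.67 (adjusted p = 0.0873). The effect of Cd at L4 minus that at L3 was 2.42 ± 0.374 (adjusted p = 0.00402), and it was called in all 16 alternative fits, with adjusted p from 1.47e-08 to 0.0202.

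dos-2 (II, 3976246 to 3977969, plus strand), another DOS-motif gene, was called for the same difference at 2.36 ± 0.6 (adjusted p = 0.0256), on 10 to 61 counts per library. It had 1.81, 0.806 and 1.31 CPM in exposed L4 worms and 0.962, 0.437 and 0.698 CPM in unexposed L4 worms. At L3 it had 0.613, 0.31 and 0.782 CPM in exposed worms and 2.42, 1.33 and 1.15 CPM in unexposed worms. The groups overlapped at L4 and did not at L3. The call was lost on leaving out unexposed L3 replicate 1, unexposed L4 replicate 2, exposed L3 replicate 1 or 2, or exposed L4 replicate 1, with values of 1.92 to 2.34 and adjusted p from 0.0559 to 0.0743, and adjusted p over all its alternatives ran from 0.00228 to 0.0743.

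Some moulting-cycle genes had the same profile, while the list of 11 as a group did not. At L4 7 of 11 were higher in every exposed library and 8 had an unadjusted p under 0.05 in edgeR, beside 36.3% of all genes with no overlap and 26.8% with such a p, and edgeR and DESeq2 each called 0. At L3 the list split, with 4 lower and 1 higher in every exposed library, 6 overlapping and a median of 0.09. fbn-1, at 0.83 ± 0.379 (adjusted p = 0.217), and mlt-11, at 0.80 ± 0.418 (adjusted p = 0.272), had positive values there. With Cd at L3 2 were called lower: mlt-10, needed for moulting, at -1.58 ± 0.175 and the astacin protease gene nas-36 at -2.31 ± 0.273 (adjusted p = 0.0124 each). For the effect of Cd at L4 minus that at L3, 4 of 11 were called, nas-36 at 3.04 ± 0.456 (adjusted p = 0.00383), mlt-10 at 2.46 ± 0.34 (adjusted p = 0.00369), mlt-8 at 1.58 ± 0.38 (adjusted p = 0.02) and nhr-25, a nuclear receptor gene, at 1.25 ± 0.253 (adjusted p = 0.00961). The summed level of the list ran from 389 to 606 CPM in exposed and from 258 to 353 CPM in unexposed L4 worms. At L3 it ran from 3484 to 3792 CPM in exposed worms and from 2093 to 3982 CPM in unexposed worms, so the sum did not follow dsl-7 at L3. The part of the moulting cycle in the values of dsl-7, osm-7 and dos-2 was not tested.

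**Figure D4:**
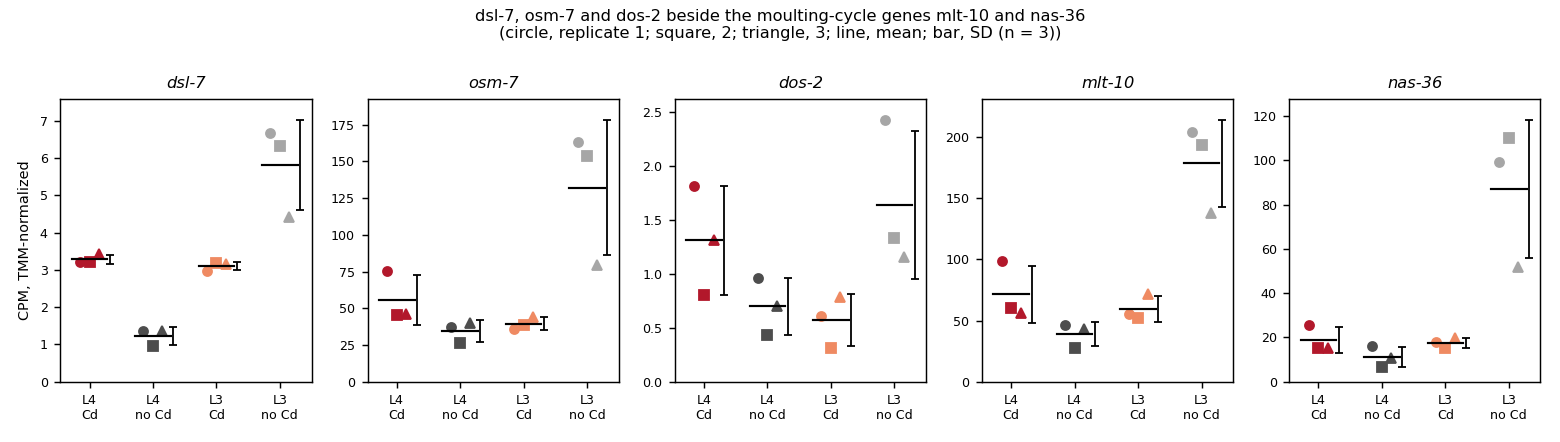
Level (CPM, linear axes from 0) of dsl-7, osm-7, dos-2 and the moulting-cycle genes mlt-10 and nas-36, shown because they were the 2 of 11 on that list called lower with Cd at L3, where the list as a whole split, in each library by stage and Cd, with mean and SD (n = 3). Each gene has its highest group mean in unexposed L3 worms and the exposed L4 mean above the unexposed L4 mean, 3.28 against 1.23 CPM for dsl-7.

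Between the stages, 14 of 31 pathway genes were called in exposed worms, 10 higher and 4 lower at L4, and 16 of 31 in unexposed worms, 10 higher and 6 lower. Of all genes tested, 48.1% were called in exposed and 56.4% in unexposed worms, so neither count stood above that share. Among the other DSL and DOS genes all 4 tested were lower at L4 than at L3 in unexposed worms: dsl-5 at -3.47 ± 0.35 (adjusted p = 3.5e-05), dos-1 at -2.35 ± 0.158 (adjusted p = 3.44e-06), osm-7 at -1.85 ± 0.282 (adjusted p = 0.000393) and dos-2 at -1.11 ± 0.398 (adjusted p = 0.0306). Of all genes tested between unexposed stages, 27.9% were called lower. The dos-2 call was lost with DESeq2's size factors or Wald test, both at -0.98, and without unexposed L3 replicate 1 or unexposed L4 replicate 2 or 3, with adjusted p over its alternatives from 0.0188 to 0.114. In exposed worms dsl-5 (-3.72 ± 0.308, adjusted p = 2.06e-06) and dos-1 (-1.77 ± 0.218, adjusted p = 3.84e-05) were lower. osm-7 in exposed worms was 0.49 ± 0.186 and under the fold minimum (adjusted p = 0.0331). dos-2 in exposed worms was higher, at 1.17 ± 0.392 (adjusted p = 0.0192), a call lost without exposed L3 replicate 2 (0.90, adjusted p = 0.066) or exposed L4 replicate 1 (0.89, adjusted p = 0.0664), with adjusted p over its alternatives from 0.000602 to 0.0664. dsl-2, dsl-4, dsl-6 and dos-3 did not pass the filter between the stages, with group means of 0.00818 to 0.421 CPM. Without Cd, dsl-2 averaged 0.181 CPM at L4 against 0.0243 CPM at L3, and dos-3 0.381 against 0.142 CPM. dsl-6 averaged 0.0434 against 0.0387 CPM, and dsl-4 was lower at L4, at 0.00911 against 0.147 CPM.

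Of the 7 genes listed for the cutting of the receptor, 1 was called in exposed and 2 in unexposed worms, all higher at L4. hop-1, a presenilin, stood at 2.59 ± 0.151 in exposed worms (adjusted p = 1.55e-07) and at 2.67 ± 0.122 in unexposed worms (adjusted p = 4.88e-07). The other presenilin gene, sel-12, stood at -0.46 ± 0.116 with Cd (adjusted p = 0.00438) and at -0.08 ± 0.116 without (adjusted p = 0.52), neither of them called. sup-17, the ADAM protease gene, stood at 0.78 ± 0.0998 in exposed worms, under the fold minimum (adjusted p = 4.71e-05), and was called in unexposed worms at 1.19 ± 0.0983 (adjusted p = 1.11e-05). sel-8, the Mastermind-like cofactor of LAG-1, was higher at L4 by 1.11 ± 0.123 with Cd (adjusted p = 1.63e-05) and by 1.67 ± 0.136 without (adjusted p = 1.01e-05).

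Of 9 modulators, 4 were called in exposed and 4 in unexposed worms. sel-10, an F-box protein gene that lowers LIN-12 activity, was higher at L4 at 1.32 ± 0.103 in exposed and 1.91 ± 0.0915 in unexposed worms (adjusted p = 1.25e-06 and 6.05e-07). The tetraspanin gene tsp-12 was higher by 1.23 ± 0.0915 with Cd and 1.51 ± 0.0904 without, and the kinase gene sel-5 by 1.07 ± 0.117 with Cd and 1.42 ± 0.124 without. The sel-5 call in exposed worms was lost without exposed L4 replicate 2, at 1.00. sel-7 was lower, by -2.65 ± 0.185 with Cd and -3.54 ± 0.249 without.

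Of 15 transcriptional targets, 10 were tested and 5 called, the same 5 genes in exposed and in unexposed worms, beside the 48.1% and 56.4% of all genes. sygl-1 averaged 76.8 ± 9.23 CPM in exposed L4 worms and 23.7 ± 1.35 CPM in exposed L3 worms, and without Cd 104 ± 14.7 CPM at L4 and 21.6 ± 2.54 CPM at L3 (SD, n = 3 each). Its log2 fold change was 1.69 ± 0.107 with Cd and 2.32 ± 0.135 without. lst-1 stood at 1.05 ± 0.11 with Cd and 1.97 ± 0.146 without, and its exposed call was lost without exposed L3 replicate 3 (0.95) or exposed L4 replicate 2 (0.99). lip-1, a MAP kinase phosphatase gene, stood at 1.37 ± 0.0952 with Cd and 1.55 ± 0.108 without, and lst-4 at 1.13 ± 0.0899 with Cd and 1.44 ± 0.0981 without. egl-43, a zinc finger transcription factor gene active in the anchor cell, was lower, by -2.59 ± 0.13 in exposed and -2.61 ± 0.159 in unexposed worms. The 5 genes hlh-25 to hlh-29, Notch targets of the embryo, were untested, with group means of 0 to 0.0469 CPM.

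Of 17188 genes compared over the 12 libraries, those with levels most like lin-12, by the root mean square difference of centred log2 CPM, were kcnl-2, a potassium channel gene, at 0.111, somi-1, a zinc finger gene, at 0.115 and C35E7.11 at 0.118. For glp-1 they were deps-1, a P granule gene that is also 1 of the 12 germline markers, at 0.0825, xnd-1, a germline chromatin gene, at 0.0846 and F54E12.2 at 0.0927. deps-1 averaged 144 CPM in exposed and 185 CPM in unexposed L4 worms, against 25.4 CPM in exposed and 21.7 CPM in unexposed L3 worms. The 12 points share libraries and stage.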

How the data were processed

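The authors trimmed 150 bp paired-end poly-A reads with Trimmomatic 0.36, mapped them to WBcel235 with STAR 2.5.2b and counted with featureCounts (Subread 1.5.2); the deposited values are raw counts per gene and library. Annotation release, strandedness and the treatment of multimapping reads are not given in the sources used here. An entry with no gene name (0.0148 to 2.01% of counts) was left out.

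Counts were tested with edgeR 4.0.16 (R 4.3.3; TMM, filterByExpr with a minimum count of 10, quasi-likelihood F test, Benjamini-Hochberg over all genes), 1 fit for each pair of groups and an interaction model over all 12 libraries for the effect of Cd at L4 minus that at L3. The SE is the log2 fold change divided by the root of F. The tests were run on simulated data first. Alternatives were DESeq2 1.42.0, its size factors, no filter, no fold minimum, a replicate block, all 12 libraries in the fit, and leaving out each library. All 10 members, every called pathway gene, the other DSL and DOS genes, and the 3 nearest profiles of each receptor are named. The members and lists were chosen with earlier results of these data known. Of 42 pathway names 2 had no match. The replicates of a group all differed by more than sampling noise. Exposed L4 replicates 2 and 3 were the closest pair, with a chi-square per degree of freedom of 3.33. Other pairs within a group had 13.1 to 99.2.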

Additional observations from a re-analysis of the deposited data

Results flagged for a closer look

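With adjusted p at or below 0.05 and no fold minimum, edgeR's interaction test for the effect of Cd at L4 minus that at L3 passed 4 of 32 pathway genes. Of all 17196 genes tested 1998 passed, so the count of pathway genes was near the share of all genes. The member dsl-7 is set beside them. For dsl-7 the difference, L4 minus L3, was 2.31, and every exposed library lay above the unexposed ones at L4 and below them at L3; it is given as a description, since the gene was chosen with these libraries known. For osm-7 it was 2.42 (adjusted p = 0.00402, edgeR quasi-likelihood test with Benjamini-Hochberg adjustment), with the same separation of libraries. For dos-2 it was 2.36 (adjusted p = 0.0256), with groups that overlapped at L4.

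In the opposite direction, sel-10 had a difference of -0.52 (adjusted p = 0.0387) and averaged 140 CPM in exposed and 169 CPM in unexposed L4 worms, against 55.6 CPM in exposed and 46.9 CPM in unexposed L3 worms. lst-1 had a difference of -0.85 (adjusted p = 0.0174) and averaged 67.5 CPM in exposed and 86.9 CPM in unexposed L4 worms, against 32.5 CPM in exposed and 23.2 CPM in unexposed L3 worms. For both, every exposed library lay below the unexposed ones at L4 and above them at L3, and both stayed under the fold minimum for a call. In the same test the 12 germline markers had a median of -0.38, with 8 at an unadjusted p under 0.05 in edgeR and 0 called by edgeR or DESeq2; their part in these differences was not tested.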

How the results depend on the processing

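Of 512 alternative values for the members' log2 fold changes, 493 kept their sign, and where the reported value was at least 1 in size 158 of 160 did. The exceptions were lag-1 relative to the germline sum, at -0.47 with Cd and -0.55 without. DESeq2's size factors moved the median of all genes from -0.07 to 0.07 between unexposed stages, from -0.01 to 0.09 between exposed stages and from -0.01 to -0.11 for the Cd difference between stages.

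With Cd at L4, 7 genes were called, against 267 with no filter, 170 with DESeq2's Wald test and 93 with all 12 libraries in the fit; each of these called 1 member, dsl-7. With Cd at L3, 545 genes were called, against 981 with no fold minimum, which added 1 member, dsl-7, and 2 pathway genes were called in place of 1 with no filter or with DESeq2. With no fold minimum, 28 pathway genes were called between unexposed stages, 29 pathway genes and 13225 genes between exposed stages, and 4 pathway genes and 1998 genes for the Cd difference between stages.

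Leaving out 1 library gave 0 to 12 calls with Cd at L4, with 0 pathway genes and 0 members throughout: 12 without unexposed replicate 2, and 0 on dropping replicate 2 or 3 of the exposed worms or replicate 3 of the unexposed worms. With Cd at L3 it gave 5 to 1267 calls, 0 to 2 pathway genes and 0 to 1 members: 1267 without unexposed replicate 3 and 5 without unexposed replicate 2 or exposed replicate 2. It gave 9185 to 9559 calls and 15 to 19 pathway genes between unexposed stages, 7883 to 8504 and 13 to 15 between exposed stages, and 635 to 1555 and 1 to 3 for the Cd difference, where the lowest was without unexposed L3 replicate 1. Members called stayed at 6, 5 and 1 in these last comparisons.

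Whether the replicate numbers pair the libraries was not settled. For Cd at L4, same-numbered libraries deviated together with r of 0.376, 0.32 and -0.0955, against -0.408 to 0.245 for libraries with different numbers. For Cd at L3 same-numbered libraries had r of -0.16 to 0.076, against -0.14 to 0.249 for different numbers. With a replicate block 387 genes and 1 member (dsl-7) were called with Cd at L4, and 5 genes and 0 pathway genes with Cd at L3. Depth limits lag-2, dsl-3 and dos-2 most, and dsl-1 and arg-1 throughout.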
